A study of Mus musculus with 451 samples.

Results

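The bone morphogenetic protein (BMP) pathway was examined in single cells of the mouse tail tendon through 10 genes: the ligands Bmp2 and Bmp4, the proteinase Bmp1, the receptors Bmpr1a and Bmpr2, the inhibitors Bambi, Chrdl1 and Grem1, and the target genes Id1 and Id3. They were taken by symbol from a table of raw read counts, and all 10 were among its 48795 genes. Cells came from 4-week-old wild-type (WT) mice and from mice lacking Mohawk homeobox (Mkx-/-), a transcription factor of the tendon lineage, both of strain C57BL/6 per the labels. The study used the Mkx-/- mouse, in which tendon ossifies, as a model of heterotopic ossification, and no other allele or treatment was named for either group. Tail tendons were digested with collagenase, and cells were captured on a Fluidigm C1 chip, which isolates single cells in separate chambers. The table held 227 WT and 224 Mkx-/- cells. No label gave the mouse or the chip from which a cell came, so each genotype was 1 sample and no test between genotypes was made. A difference between genotypes therefore cannot be told apart from one between animals or chips, and every interval below covers counting error only.

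BMPs are secreted dimers that bring a type I and a type II serine/threonine kinase receptor together. The type II receptor then activates the type I receptor, which phosphorylates SMAD1, SMAD5 and SMAD9, and these enter the nucleus with SMAD4 and switch on target genes such as the Id family. Secreted antagonists and a receptor without a kinase domain restrain the signal. BMPs were named for inducing bone outside the skeleton, and excess BMP signalling is a known driver of heterotopic ossification. All values here are RNA levels, and neither ligand protein nor SMAD phosphorylation was measured.

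The WT cells held 13630536 reads and the Mkx-/- cells 14145394, with medians of 51788 and 56121 per cell. Levels are reads summed over the cells of a group and scaled to a common library total (counts per 1000000 reads, CPM), and the genotype ratio is the log2 of Mkx-/- over WT. The targeted gene, Mkx, was at 15.5 CPM (13.5 to 17.7) in Mkx-/- against 33.8 CPM (30.8 to 37.1) in WT cells, so the cells labelled Mkx-/- were lower in it but still held reads of it. Alignment and joint clustering of both genotypes followed the study's approach, and 3 clusters resulted. The cluster called tendon progenitor cell-like (TPC-like) held 47.1% of the WT and 44.6% of the Mkx-/- cells and was highest in 5 of 5 progenitor markers. The tenocyte-like (TC-like) cluster held 32.6% and 35.7% of the cells and was highest in 6 of 6 tenocyte markers. Cluster 3, with 20.3% and 19.6% of the cells, was highest in 2 of 2 tenoblast markers and stayed unnamed because at least 3 markers were required. Pf4, a platelet and macrophage gene, was among the 10 leading genes of the TPC-like cluster, and the chemokine gene Ccl5 and the cartilage collagen gene Col2a1 were among those of the TC-like cluster. Bmp2 and Id3 were among the 1693 genes used for the alignment and the other members were not, so differences between clusters are given as descriptions.

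Bmp2 was the ligand with more reads, and it was higher in Mkx-/- cells. Over all cells it stood at 181.8 CPM (174.7 to 189.1) in WT against 262 CPM (254 to 271) in Mkx-/- cells, for a log2 ratio of 0.53 (0.45 to 0.60). The gene lies on chromosome 2 at 133377895 to 133388621, plus strand (this and all other gene positions are on NCBIM37, mm9). Its level was 166.3 against 249.9 CPM in TPC-like cells, 279 against 478 CPM in cluster 3 and 164.05 against 205.5 CPM in TC-like cells. The Mkx-/- level was thus above the WT level in each cluster, and cluster 3 held the highest level of Bmp2 in both genotypes. The log2 ratios were 0.59 (0.46 to 0.71), 0.77 (0.62 to 0.93) and 0.33 (0.21 to 0.44), in the same order. Cells with a Bmp2 read made up 59.03% of WT cells (52.3 to 65.5) against 72.8% of Mkx-/- cells (66.4 to 78.5). Single cells varied far more than the genotypes did: per-cell values ran from 0 through a median of 34.7 to 2218 CPM in WT, and from 0 through 78.9 to 2690 CPM in Mkx-/- cells. In WT, the tenth of the cells with the most Bmp2 reads held 51.3% of them. In TC-like cells the median log2 ratio of all genes was itself 0.20, and relative to it Bmp2 was higher by 0.12. Without the 48 WT and 41 Mkx-/- cells with reads of at least 2 endothelial or mural cell markers, the TC-like ratio of Bmp2 was -0.14.

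Bmp4, a related ligand on chromosome 14 at 47003195 to 47010344, minus strand, was detected in fewer cells. Over all cells it had 314 WT and 416 Mkx-/- reads, which is 23.04 CPM (20.6 to 25.7) against 29.4 CPM (26.7 to 32.4), for a log2 ratio of 0.35 (0.14 to 0.57). Among the clusters, the interval of its ratio was clear of 0 in TPC-like cells only. In TPC-like cells Bmp4 was 28.2 CPM (23.8 to 33.1) in WT against 47.2 CPM (41.4 to 53.5) in Mkx-/- cells, for a log2 ratio of 0.74 (0.44 to 1.05). In cluster 3 the WT level was the higher one, at 36.6 against 27.6 CPM, but the interval of the ratio, -0.93 to 0.11, included 0. TC-like cells had the lowest levels of Bmp4, 14.5 and 16.8 CPM, and the interval of their ratio included 0 as well. A Bmp4 read was found in 45% of Mkx-/- TPC-like cells (35.03 to 55.3) against 28.97% of WT ones (20.6 to 38.5). Bmp4 overlaps exons of Gm15217 on the other strand, which had 0 reads in the table.

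Bmp1 carries the BMP name but is not a ligand of the family. It is a tolloid metalloproteinase that cleaves the C-propeptide of fibrillar procollagens and also the BMP antagonist chordin. It lies on chromosome 14 at 70874364 to 70920067, minus strand, and was read in 78.4% of WT and 82.1% of Mkx-/- cells. Its level was 316 CPM (307 to 326) in WT against 365 CPM (355 to 375) in Mkx-/- cells, for a log2 ratio of 0.21 (0.15 to 0.27). The Mkx-/- level of Bmp1 was the higher one in each of the 3 clusters, with log2 ratios of 0.12 in TPC-like cells, 0.28 in cluster 3 and 0.32 in TC-like cells. Levels fell from TPC-like cells through cluster 3 to TC-like cells in both genotypes, at 395, 326 and 247 CPM in WT and 430, 396 and 308 CPM in Mkx-/- cells. In each genotype the TC-like to TPC-like difference of Bmp1 lay within 0.05 of that of the median gene, at -0.67 against -0.67 on the log2 scale in WT and -0.48 against -0.43 in Mkx-/- cells.

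**Figure D1:**
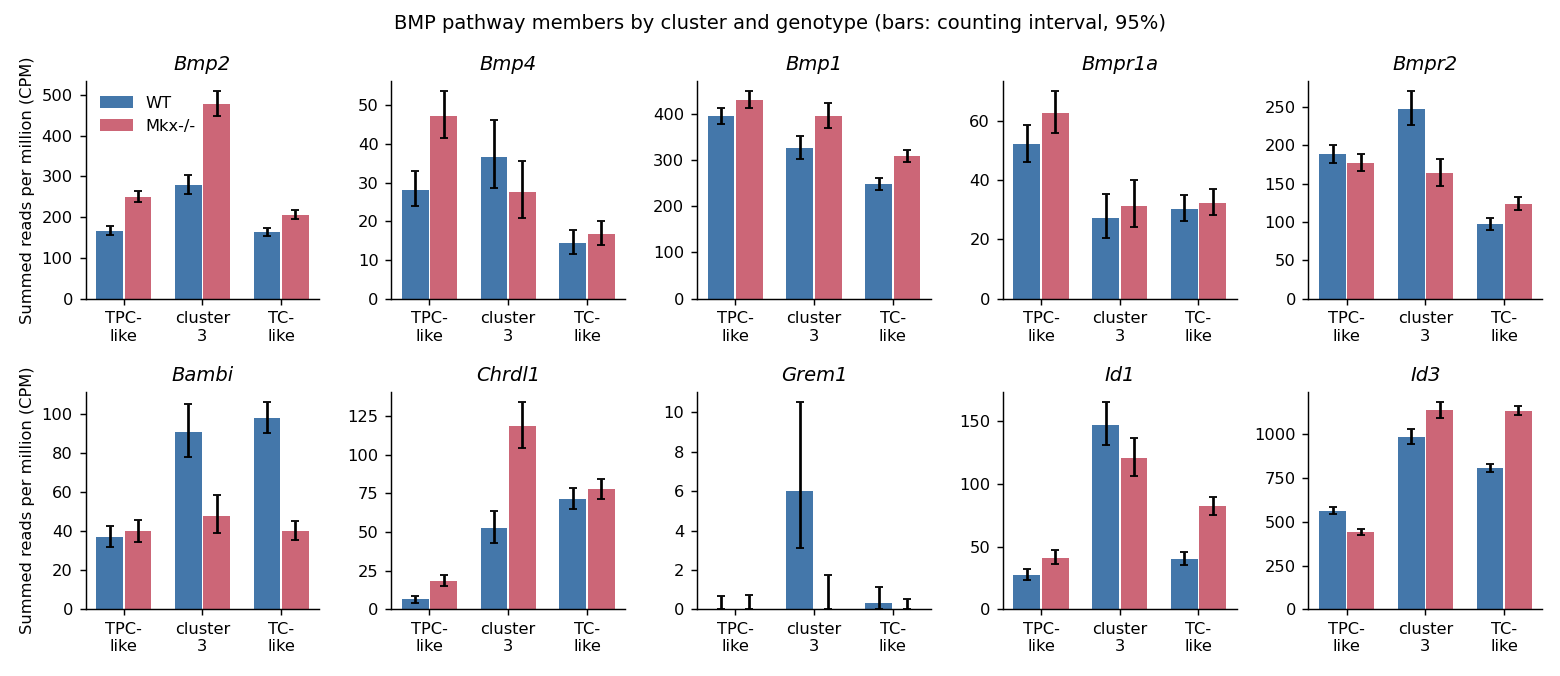
Summed level (CPM, y axis, linear from 0, own scale for each gene) of the 10 genes in 3 clusters of cells, in WT (blue) and Mkx-/- (red) cells, with exact Poisson intervals at 95%. Bambi was lower in Mkx-/- cells of cluster 3 and of the TC-like cluster, Bmp2 was higher in Mkx-/- cells of all 3 clusters, and Id3 was lower in TPC-like and higher in TC-like Mkx-/- cells.

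Among the receptors, Bmpr1a differed by less than 1.5-fold between genotypes over all cells and in each cluster, and Bmpr2 differed in direction between clusters. Bmpr1a, a type I receptor on chromosome 14 at 35223920 to 35316527, minus strand, was 38.2 CPM (35.01 to 41.7) in WT against 43.2 CPM (39.8 to 46.8) in Mkx-/- cells, for a log2 ratio of 0.18 (0.01 to 0.35). Its reads were spread over more cells in Mkx-/-, where 39.7% of cells (33.3 to 46.5) had one against 25.6% of WT cells (20.01 to 31.7). In cells thinned to 28000 reads, which left out 23 WT and 18 Mkx-/- cells with fewer, the shares were 33.98% in Mkx-/- and 22.5% in WT. TPC-like cells held the highest level of Bmpr1a, 52.04 CPM in WT against 62.6 CPM in Mkx-/- cells, against 27.1 to 32.4 CPM in the other clusters. In WT cells of cluster 3, a single cell held 59.3% of the Bmpr1a reads, and the genotype log2 ratio there went from 0.21 to 0.98 once the cell with the most Bmpr1a reads was dropped from both genotypes. Exons of Bmpr1a overlap Gm17110 on the other strand, which had 64 reads over all cells.

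Bmpr2, the type II receptor shared by many BMP ligands, lies on chromosome 1 at 59821481 to 59927703, plus strand. Over all cells it was 154.7 CPM (148.2 to 161.5) in WT against 149.4 CPM (143.1 to 155.9) in Mkx-/- cells, and the interval of the log2 ratio, -0.14 to 0.04, included 0. Within clusters the levels parted. In cluster 3 Bmpr2 was 248 CPM (226.4 to 271) in WT against 163.5 CPM (146.7 to 181.7) in Mkx-/- cells, for a log2 ratio of -0.60 (-0.80 to -0.40). In TC-like cells it was 97.6 CPM (90.1 to 105.6) in WT against 124.2 CPM (116.1 to 132.8) in Mkx-/- cells, for a log2 ratio of 0.35 (0.20 to 0.50), or 0.14 above that of the median gene. The levels in TPC-like cells were 188.3 and 177.5 CPM, and the interval of their ratio included 0. The lower sum in cluster 3 did not come with fewer positive cells: 58.7% of WT cells (43.2 to 73.003) and 68.2% of Mkx-/- cells (52.4 to 81.4) had a Bmpr2 read there.

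A promoter sequence from RefSeq (GRCm38.p6) was searched for 5 of the 10 genes, Bmpr2, Bmpr1a, Bmp4, Grem1 and Id3. No sequence was at hand for Bmp2, Id1, Bmp1 and Chrdl1, and the promoter of Bambi was left out of the search. The 250 bases before the annotated start were searched on both strands for letters that SMAD proteins are known to bind, the GC-rich element GGCGCC, which reads the same on both strands, and the SMAD box CAGAC, read as its reverse complement GTCTG on the other strand. The matches did not overlap each other. Of 32851 promoters of that length, 9.59% held the GC-rich element and 42.2% the SMAD box. The GC-rich element occurred at 1 position each before Bmpr2, Bmpr1a and Grem1, and the SMAD box occurred at 2 positions before Id3 and at 1 before Grem1. Neither was found before Bmp4. The promoters of Bmpr2 and Id3 are shown because the genotype ratios of these genes changed sign between clusters with intervals clear of 0, a choice made after their values were seen. Capitals mark the matches, at position -105 before Bmpr2 (chr1:59764029-59764278, plus strand) and at -167 and -68 before Id3 (chr4:136143572-136143821, plus strand). A match describes letters and shows no binding.
Bmpr2: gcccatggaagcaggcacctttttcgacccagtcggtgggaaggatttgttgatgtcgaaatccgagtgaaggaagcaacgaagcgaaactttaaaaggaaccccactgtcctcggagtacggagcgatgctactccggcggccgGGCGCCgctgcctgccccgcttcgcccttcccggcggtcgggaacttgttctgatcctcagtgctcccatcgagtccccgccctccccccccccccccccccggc
Id3: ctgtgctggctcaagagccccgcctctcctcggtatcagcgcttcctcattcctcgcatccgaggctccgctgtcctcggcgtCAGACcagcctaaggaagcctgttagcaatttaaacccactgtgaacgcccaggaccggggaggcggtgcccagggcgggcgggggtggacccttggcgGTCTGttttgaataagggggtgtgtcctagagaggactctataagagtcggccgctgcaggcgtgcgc

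The target genes were both higher in Mkx-/- cells as a whole, and they parted in the clusters. ID1 and ID3 are helix-loop-helix proteins without a DNA-binding region that block other factors of that class, and their genes are standard readouts of SMAD1 and SMAD5 activity, although other signals also induce them. Id1, on chromosome 2 at 152561987 to 152563146, plus strand, was 50.9 CPM (47.2 to 54.8) in WT against 72.96 CPM (68.6 to 77.5) in Mkx-/- cells, for a log2 ratio of 0.52 (0.38 to 0.66). Cells positive for Id1 were 36.6% of WT cells (30.3 to 43.2) against 49.6% of Mkx-/- cells (42.8 to 56.3). In both genotypes cluster 3 had the highest level of Id1, then TC-like cells, then TPC-like cells. The WT levels in that order were 146.9, 40.3 and 27.4 CPM, and the Mkx-/- levels were 120.7, 81.998 and 41.2 CPM. The intervals of neighbours in this order did not overlap in either genotype, but in WT the step from TPC-like to TC-like cells rested on a single well that was rich in endothelial reads. Without it the WT TC-like level was 29.4 CPM (25.2 to 34.1), which overlaps the TPC-like interval of 23.2 to 32.3 CPM.

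The genotype difference in Id1 was largest in TC-like cells, where it was 40.3 CPM (35.5 to 45.6) in WT against 81.998 CPM (75.4 to 89.03) in Mkx-/- cells, for a log2 ratio of 1.02 (0.81 to 1.24), or 0.82 above that of the median gene. The share of TC-like cells with an Id1 read was 36.5% (25.6 to 48.5) in WT against 63.8% (52.2 to 74.2) in Mkx-/- cells. One WT cell of that cluster, the deepest of all with 335813 reads, held 79 Id1 reads, 30.9% of those in WT TC-like cells. The same well held 427 of the 488 WT reads (87.5%) of 6 endothelial markers, the list without Tek. That share does not hold for the full list. With Tek included, WT cells summed to 91.6 CPM, and the highest WT cell, at 1386 CPM, was TPC-like. Without this well the Id1 ratio was 1.48 (1.23 to 1.73), a calculation added after the data were seen. It was 1.85 without all cells that had at least 2 endothelial or mural markers. In TPC-like cells Id1 was 27.4 against 41.2 CPM, for a log2 ratio of 0.59 (0.27 to 0.90), but this became -0.03 without those endothelial or mural marker cells. In cluster 3 the WT level of Id1 was the higher one, with a log2 ratio of -0.28 (-0.53 to -0.04).

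Id3, the member with the most reads, was lower in Mkx-/- TPC-like cells and higher in Mkx-/- TC-like cells. The gene lies on chromosome 4 at 135699412 to 135701670, plus strand. Over all cells it was 738 CPM (724 to 752) in WT against 882 CPM (867 to 898) in Mkx-/- cells, for a log2 ratio of 0.26 (0.22 to 0.30). In TPC-like cells it was 562 CPM (542 to 582) in WT against 442 CPM (424 to 460) in Mkx-/- cells, for a log2 ratio of -0.35 (-0.43 to -0.27). In TC-like cells Id3 was 807 CPM (785 to 830) in WT against 1132 CPM (1107 to 1158) in Mkx-/- cells, for a log2 ratio of 0.49 (0.44 to 0.54), or 0.28 above that of the median gene. Cluster 3 stood between these, with a log2 ratio of 0.21 (0.12 to 0.29). The single cells moved the same way: the median per-cell level of Id3 was 231 against 149.3 CPM in TPC-like cells and 535 against 786 CPM in TC-like cells, WT first. The ranges overlapped almost wholly, with highest cells at 4042 and 3806 CPM in the TPC-like cluster. Each sign held under all alternatives run, spanning -0.45 to -0.23 for TPC-like and 0.28 to 0.84 for TC-like cells. Of the members, only Id3 had ratios of opposite sign in these clusters with both intervals clear of 0, which was true of 19.4% of the 10963 genes with at least 100 reads.

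The TC-like libraries also differed between genotypes beyond the BMP genes. Col1a1, Col1a2 and Sparc took 30.9% of the TC-like reads in WT and 21.7% in Mkx-/- cells, beside the all-gene median ratio of 0.20 there. The 7 endothelial markers summed to 84.9 CPM in WT against 10.99 CPM in Mkx-/- TC-like cells. The per-cell ranges were 0 to 1272 and 0 to 206.4 CPM, with no marker at 0 reads. Most of the WT sum came from the well described above, which held 427 reads of the markers other than Tek. The WT level without that well was not calculated. The 7 mural markers summed to 146.9 and 129.1 CPM in TC-like cells, with Myh11 at 0. In TPC-like cells the endothelial markers summed to 119.6 CPM in WT against 65.7 CPM in Mkx-/- cells (per-cell ranges 0 to 1386 and 0 to 2774), with Egfl7 at 0. All WT cells together held 488 reads of the markers other than Tek, and 427 of these lay in the TC-like well. The WT TPC-like sum was therefore mostly reads of Tek. The Mkx-/- sum was not split by gene. Of the other lists in TC-like cells, the 7 macrophage markers summed to 89.6 CPM in WT against 10.6 CPM in Mkx-/- cells (per-cell ranges 0 to 4495 and 0 to 234.3, no marker at 0). The 7 cartilage and bone markers summed to 588 against 414 CPM (0 to 3078 and 0 to 1901, with Ibsp and Sp7 at 0), and the 4 Schwann cell markers to 155.7 against 218.5 CPM (0 to 4287 and 0 to 6036, no marker at 0). The part of these cells in the Id1 and Id3 values beyond the omissions above was not tested.

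**Figure D2:**
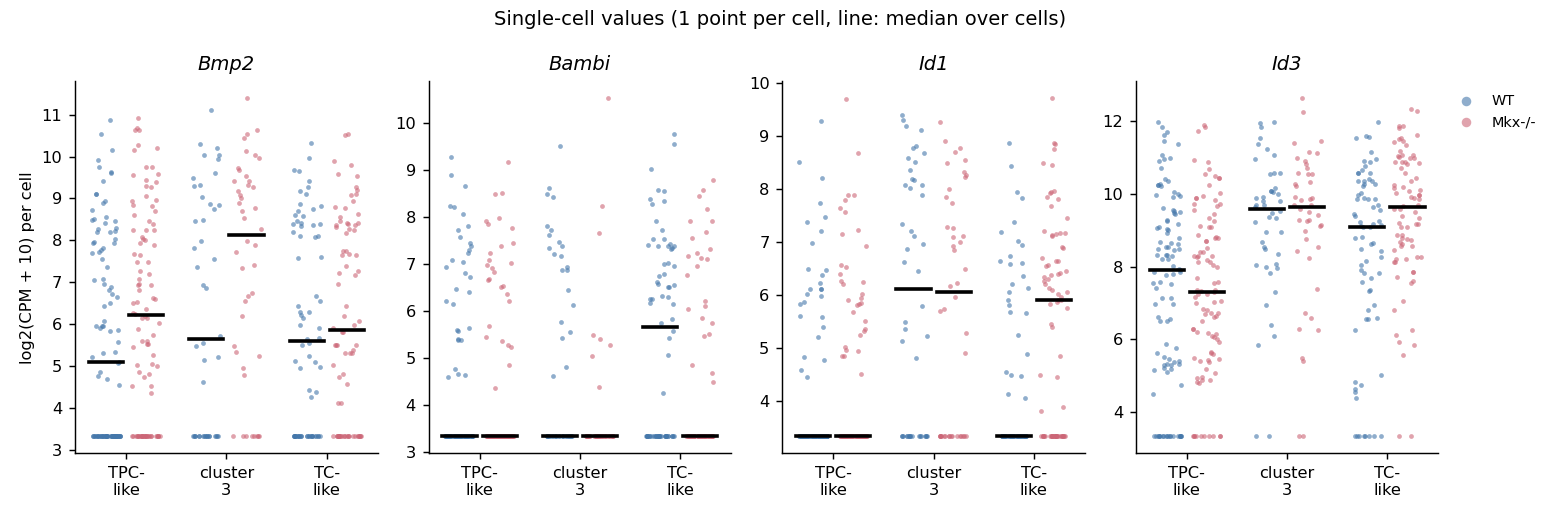
Per-cell level of Bmp2, Bambi, Id1 and Id3 on the log2(CPM + 10) scale (y axis, own range for each gene) in the 3 clusters, WT in blue and Mkx-/- in red, with 1 point per cell and a black line at the median. Cells without a read form the lowest row, and the shift of Id3 is downward in TPC-like and upward in TC-like Mkx-/- cells while the clouds overlap.

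Of the 9 members with at least 100 reads, Bambi was the only one more than 1.5-fold lower in Mkx-/- cells as a whole. Bambi resembles a type I receptor without the kinase domain and dampens BMP and TGF-beta signals. It was 73.4 CPM (68.9 to 78.1) in WT against 41.4 CPM (38.1 to 44.8) in Mkx-/- cells, for a log2 ratio of -0.83 (-0.98 to -0.68). Cells positive for Bambi were 41.9% of WT cells (35.4 to 48.6) against 27.2% of Mkx-/- cells (21.5 to 33.6), so both the reads and the positive cells were fewer. The difference lay in the clusters where WT cells had the most of it. In TC-like cells Bambi was 98.1 CPM (90.5 to 106.1) in WT against 40.3 CPM (35.8 to 45.4) in Mkx-/- cells, for a log2 ratio of -1.28 (-1.49 to -1.08), or -1.49 relative to the median gene. In cluster 3 it was 90.8 CPM (78.03 to 105.003) in WT against 48.006 CPM (39.1 to 58.3) in Mkx-/- cells, for a log2 ratio of -0.92 (-1.28 to -0.56). A single Mkx-/- cell held 65.3% of the Bambi reads of that cluster, and the ratio there was -2.22 once the cell with the most Bambi reads was dropped from both genotypes.

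In TPC-like cells Bambi was near 40 CPM in both genotypes, at 37.1 CPM (32.1 to 42.7) and 39.99 CPM (34.7 to 45.9), and the interval of the log2 ratio, -0.18 to 0.40, included 0. Without the cells that had endothelial or mural markers that ratio was -0.67. In WT, Bambi was 2.64-fold higher in TC-like than in TPC-like cells, for a log2 ratio of 1.40 (1.17 to 1.64), whereas in Mkx-/- cells the ratio was 0.01 (-0.25 to 0.28). The difference between the genotypes in this ratio could not be tested with 1 sample per genotype. The list of 10 dissociation and stress genes was also lower in Mkx-/- TC-like cells, at 2718 against 3440 CPM (per-cell ranges 143.3 to 15493 and 125.1 to 17058), and its part in the Bambi values was not tested. Bambi lies on chromosome 18 at 3507955 to 3516402, plus strand. A stretch of 745 aligned bases on chromosome 2, at 122292671 to 122293400, matched 14.6% of its transcript with 87.8% identity, and the pseudogene Bambi-ps1 had 0 reads in the table. No other member had such a copy at 85% identity over at least 150 bases.

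Chrdl1, a secreted chordin-like protein that binds BMP4 and keeps it from its receptors, was found mostly in cluster 3 and in TC-like cells and was higher in Mkx-/- cells outside the latter. It lies on chromosome X at 139720217 to 139828805, minus strand. Over all cells Chrdl1 was 43.5 CPM (40.1 to 47.2) in WT against 62.2 CPM (58.2 to 66.5) in Mkx-/- cells, for a log2 ratio of 0.52 (0.36 to 0.67). In TPC-like cells it was 6.43 CPM (4.46 to 8.99), in 6.54% of WT cells, and 18.3 CPM (14.8 to 22.4), in 16% of Mkx-/- cells. That is a log2 ratio of 1.51 (0.93 to 2.12), resting on 34 and 94 reads. In cluster 3 Chrdl1 was 52.7 CPM (43.1 to 63.7) in WT against 118.4 CPM (104.1 to 134.002) in Mkx-/- cells, for a log2 ratio of 1.17 (0.83 to 1.51), which was 0.67 in cells thinned to 28000 reads, with 8 shallower cells of each genotype left out. TC-like levels were close to each other, 71.5 and 77.7 CPM, and the interval of their ratio, -0.06 to 0.30, included 0. Chrdl1 was thus far higher in TC-like than in TPC-like cells in each genotype, with a log2 ratio of 3.47 (2.97 to 4.02) in WT against 2.08 (1.76 to 2.41) in Mkx-/-.

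Grem1, a secreted antagonist that binds BMP2 and BMP4, was hardly read. It had 14 reads in 3 of 227 WT cells, of which 12 reads lay in 2 cells of cluster 3, and 0 reads in the 224 Mkx-/- cells. A count of 0 in 224 cells allows a share of up to 1.34% of cells with a read, at 3 counts of the total. The WT share was 1.32%, so the shares set no least difference. With the Mkx-/- count set to a floor of 3 reads, the log2 ratio was -2.28. That value takes the 14 WT reads as exact, although their interval was 0.56 to 1.72 CPM and 1 WT cell alone held 57.1% of them. Grem1 lies on chromosome 2 at 113586321 to 113598803, minus strand.

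**Figure D3:**
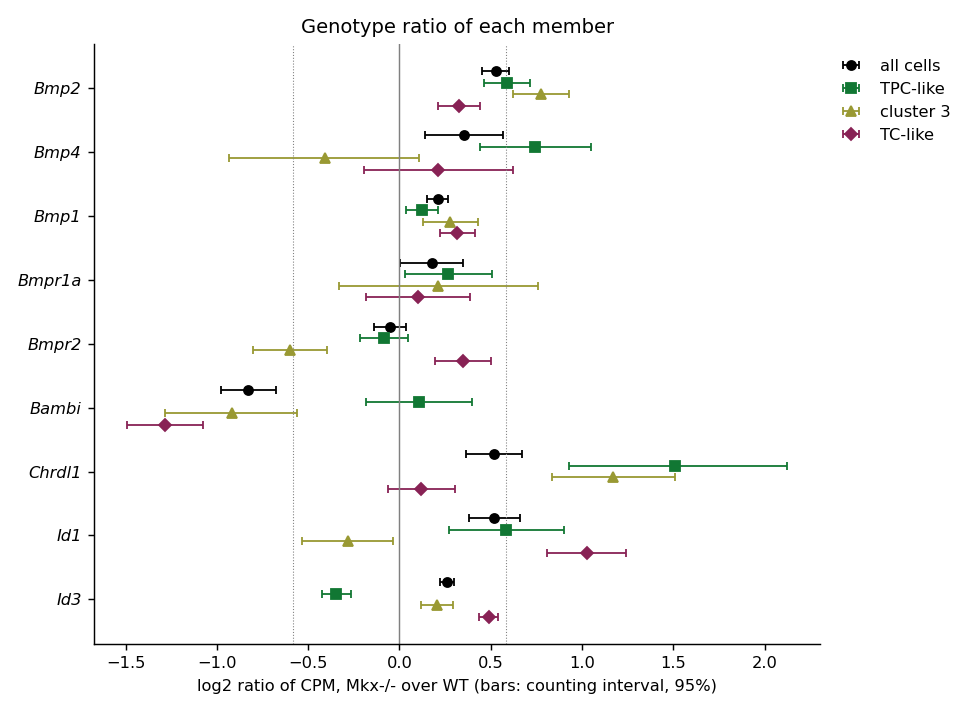
Log2 ratio of Mkx-/- over WT CPM (x axis) for the 9 members with at least 100 reads over both genotypes (Grem1 is left out), over all cells and in each cluster, with exact conditional binomial intervals at 95% and dotted lines at 1.5-fold. Bambi lies left of 0 except in TPC-like cells, Bmp2 and Bmp1 lie right of 0 in each cluster, and Id3 changes side between TPC-like and TC-like cells.

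The 1.5-fold rule was applied to the 9 members with at least 100 reads. With all cells pooled, none was past 1.5-fold higher in Mkx-/- cells, where 16% of all genes were, and 1, Bambi, was past 1.5-fold lower, where 13.1% were. Their median log2 ratio was 0.26, with 7 members above 0 and 2 below, against a median of 0.05 over all genes. In TPC-like cells 4 members were past 1.5-fold higher (Bmp2, Bmp4, Chrdl1 and Id1) and 0 lower, where 17.2% and 15.8% of all genes were. The folds of Bmp2 and Id1 there were 1.502 and 1.50004, at the edge of the rule. In cluster 3, Bmp2 and Chrdl1 were past it higher and Bmpr2 and Bambi lower, against backgrounds of 23% and 18.9%. In TC-like cells Id1 was past it higher and Bambi lower, against 28% and 13.2%.

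Between clusters the members differed in level, in no single direction. Comparing TC-like with TPC-like cells in WT, 2 members were past 1.5-fold higher (Bambi and Chrdl1), where 10.7% of all genes were, and 4 were past it lower (Bmp4, Bmp1, Bmpr1a and Bmpr2), where 54.1% were. In Mkx-/- cells 3 were higher (Chrdl1, Id1 and Id3) against 12.3% of all genes, and 2 were lower (Bmp4 and Bmpr1a) against 42.6%. The median gene was lower in TC-like cells, by log2 ratios of -0.67 in WT and -0.43 in Mkx-/- cells. Relative to it, Bmp2 was higher by 0.65 in WT TC-like cells while the interval of its own log2 ratio, -0.15 to 0.11, included 0. In cells thinned to 28000 reads, the WT log2 ratio of Bmpr1a was -0.08, against -0.78 over all cells, and that of Bmp4 -0.33 against -0.96. That setting left out 15 WT TPC-like cells and 0 TC-like cells, and the parts of thinning and of the missing cells were not separated. Id1 in WT went from a ratio of 0.55 to 0.10 without the well rich in endothelial reads.

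Single cells were then asked whether they held the parts of the pathway together. At 28000 reads per cell, with the 23 WT and 18 Mkx-/- cells below that depth left out, 22.5% of WT cells (17.01 to 28.9) against 36.4% of Mkx-/- cells (29.8 to 43.4) had reads of a ligand (Bmp2 or Bmp4), of a type I receptor (Bmpr1a, Bmpr1b or Acvr1) and of a type II receptor (Bmpr2, Acvr2a or Acvr2b). Each part alone was also read in more Mkx-/- cells. WT against Mkx-/- shares were 64.2% and 75.2% for a ligand, 57.4% and 67.96% for a type I receptor and 65.2% and 70.4% for a type II receptor. Whether the parts met in a cell more often than these single shares would give was not tested. The Mkx-/- share of cells with all parts was the higher one in each cluster. It was 35.6% against 19.6% in TPC-like cells, 36.1% against 23.7% in cluster 3 and 37.5% against 25.7% in TC-like cells. Within each cluster the intervals overlapped. In TPC-like cells a ligand was read in 65.2% of WT cells (54.6 to 74.9) against 83.3% of Mkx-/- cells (74.005 to 90.4), whereas in TC-like cells the shares were 62.2% and 61.3%. Id1 and Id3 were read together in 27.03% of WT TC-like cells (17.4 to 38.6) against 55% of Mkx-/- TC-like cells (43.5 to 66.2). These shares nearly equal those of Id1 alone, 28.4% and 56.25%, since Id3 was read in 83.8% and 97.5% of the same cells. The joint shares were 22.8% and 23.3% in TPC-like cells.

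**Figure D4:**
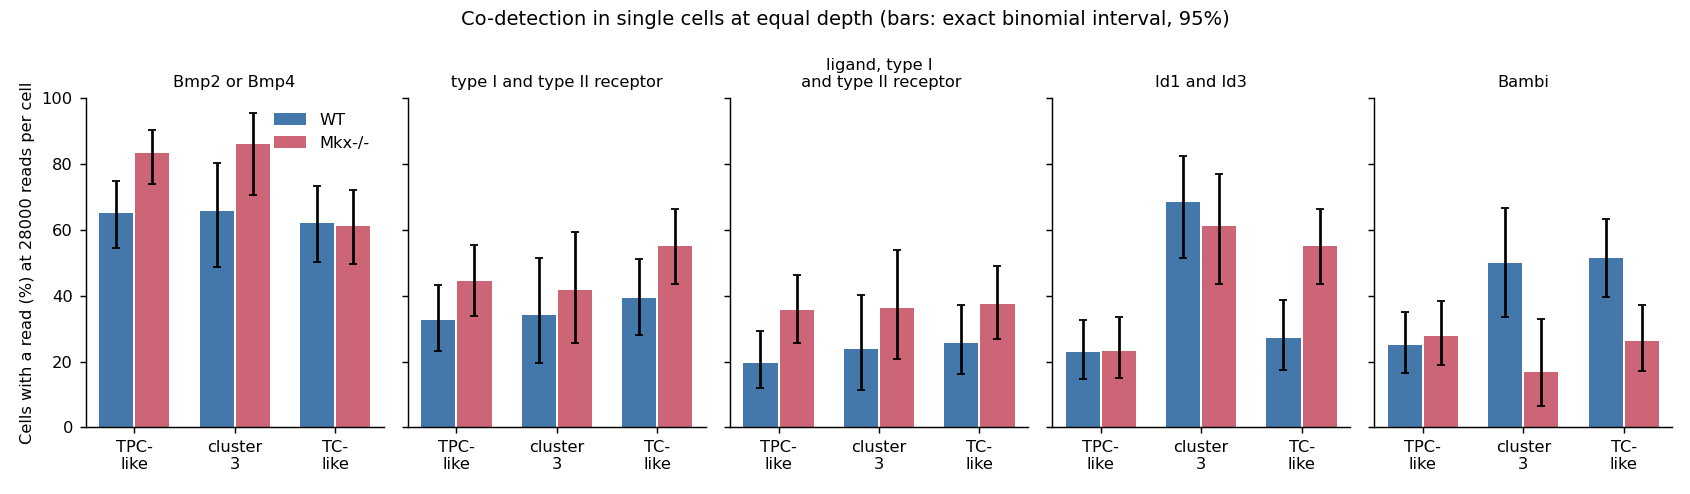
Share of cells (%, y axis from 0) with reads of the named genes at 28000 reads per cell, by cluster, WT in blue and Mkx-/- in red, with exact binomial intervals at 95% and cells under that depth left out. The gaps are widest for Bambi in cluster 3 (50% and 16.7%), for Id1 with Id3 in TC-like cells (27.03% and 55%) and for Bambi in TC-like cells (51.4% and 26.3%).

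Across the 451 cells the members varied mostly apart from each other. On the log2(CPM + 10) scale, Id1 and Id3 had the highest Pearson correlation of any pair of members, 0.32, and it was 0.22, 0.24 and 0.31 within TPC-like cells, cluster 3 and TC-like cells. The other pairs were at 0.19 or below, Bmp2 with Id1 at 0.06 and Bmp2 with Id3 at 0.10. Cells share depth and cluster, so these values describe the cells and no p is given. Among 5125 genes read in at least 20% of cells, the 3 most like Id3 were Hes1 (0.38), Gadd45b (0.37) and Zfp36 (0.35), and those most like Id1 were Comp (0.33), Id3 (0.32) and Fam180a (0.29). For Bambi they were Nr4a1 (0.25), Fosb (0.24) and Gadd45b (0.23), and for Chrdl1 they were Egfl6 (0.37), 1500015O10Rik (0.37) and Comp (0.36). The correlations of Chrdl1 with these genes were at most 0.19 within TC-like cells. The highest values for Bmp2, Bmp4, Bmp1, Bmpr1a and Bmpr2 were between 0.19 and 0.26, with Fosl1, Vcan, Tmbim1, Pgf and Rab8b.

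The wider pathway was read from a list of 64 symbols, of which 63 were in the table and 38 had at least 100 reads. Of these, 2 (5.26%) were past 1.5-fold higher and 4 (10.5%) lower in Mkx-/- cells, beside the 16% and 13.1% of all genes, and their median log2 ratio was 0.16. Among the ligands, Bmp8a was 76.96 CPM in WT against 59.8 CPM in Mkx-/- cells and Bmp3 52.3 against 41.3 CPM, with log2 ratios of -0.36 (-0.50 to -0.23) and -0.34 (-0.50 to -0.18) over all cells. Neither was lower in every cluster: Bmp8a was 12.5 CPM in WT against 61.8 CPM in Mkx-/- cells of cluster 3, and the ratio of Bmp3 in TPC-like cells was 0.29 (0.07 to 0.52). Neither Gdf5, Gdf7 nor Gdf2 had a read. Of the type I receptors, Acvr1, the receptor mutated in inherited heterotopic ossification, was 66.8 and 62.9 CPM, and Bmpr1b was 31.5 and 28.1 CPM, and the intervals of both ratios included 0 over all cells. By cluster, the ratio of Acvr1 was 0.36 in TPC-like cells, -0.52 in cluster 3 and -0.28 in TC-like cells, and that of Bmpr1b was 1.45 in cluster 3 and -0.40 in TC-like cells, each with an interval clear of 0. The type II receptor Acvr2a was lower in Mkx-/- cells as a whole, at 5.51 against 11.7 CPM, for a log2 ratio of -1.08. In cluster 3 the ratio of Acvr2a was 0.19 (-0.89 to 1.28). Its relative Acvr2b had 59 and 23 reads, too few for the rule. The co-receptor Rgma was 2.35 CPM in WT against 5.51 CPM in Mkx-/- cells, for a log2 ratio of 1.23 resting on 32 and 78 reads, while Rgmb differed by 0.12. In cluster 3 Rgma had 11 WT and 0 Mkx-/- reads.

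Inside the cell, the genes of SMAD1, SMAD4 and SMAD5 differed by less than 1.5-fold over all cells. Smad5 had a log2 ratio of 0.39 (0.25 to 0.52), and the ratios of Smad1 and Smad4 were -0.03 and 0.05. The pooled value of Smad4, the partner of the receptor-activated SMADs, joined opposite ones: it was 129.4 CPM in WT against 45.2 CPM in Mkx-/- cells of cluster 3, for a log2 ratio of -1.52 (-1.87 to -1.17), and 39.04 against 76.9 CPM in TC-like cells, for a log2 ratio of 0.98 (0.76 to 1.20). The feedback inhibitors Smurf1, Smurf2 and Smad7, which turn receptors and SMADs over, were higher in Mkx-/- cells as a whole, with log2 ratios of 0.48, 0.39 and 0.22. The rise was not seen in every cluster. Smad7 was at 0.80 in TPC-like cells, -0.19 in cluster 3 and -0.02 in TC-like cells. Smurf1 and Smurf2 were at 0.05 and -0.14 in cluster 3. Of these cluster values, only that of Smad7 in TPC-like cells had an interval clear of 0. In TPC-like cells Smurf1 and Smurf2 were higher in Mkx-/-, at 0.47 (0.19 to 0.74) and 0.56 (0.37 to 0.76). The same held in TC-like cells, at 0.75 (0.48 to 1.03) and 0.51 (0.29 to 0.73). Smad6, the inhibitory SMAD that acts mainly on BMP signals, had a ratio of 0.07 (-0.10 to 0.24), with -0.55 in cluster 3 and 0.84 in TC-like cells. Among secreted inhibitors Nbl1 was 671 CPM in WT against 766 CPM in Mkx-/- cells and Twsg1 84.7 against 115.7 CPM, whereas Kcp, a chordin-like modulator, was 39.2 against 20.01 CPM, for a log2 ratio of -0.97 (-1.18 to -0.76). These too are pooled values. In TC-like cells Kcp was the higher one in Mkx-/-, at 10.6 against 3.94 CPM, for a log2 ratio of 1.42 (0.75 to 2.14). Twsg1 had a ratio of -0.81 in cluster 3 and 1.54 in TC-like cells, and Nbl1 one of -0.12 for TPC-like cells and 1.07 for TC-like ones. Noggin (Nog) was 6.09 and 7.28 CPM, and the interval of its ratio over all cells included 0. The other tolloid proteinases were sparse, with 64 and 32 reads of Tll1 and 4 and 13 of Tll2. Among target genes Id2 was 213.1 and 202.9 CPM over all cells, with a log2 ratio of 0.34 for TPC-like cells and -0.39 for TC-like ones, opposite in sign to those of Id3 in both. Msx1 was higher (10.8 against 21.3 CPM, for a log2 ratio of 0.98) and Dlx5, a factor of bone-forming cells, was lower (6.24 against 1.98 CPM, for a log2 ratio of -1.66).

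**Figure D5:**
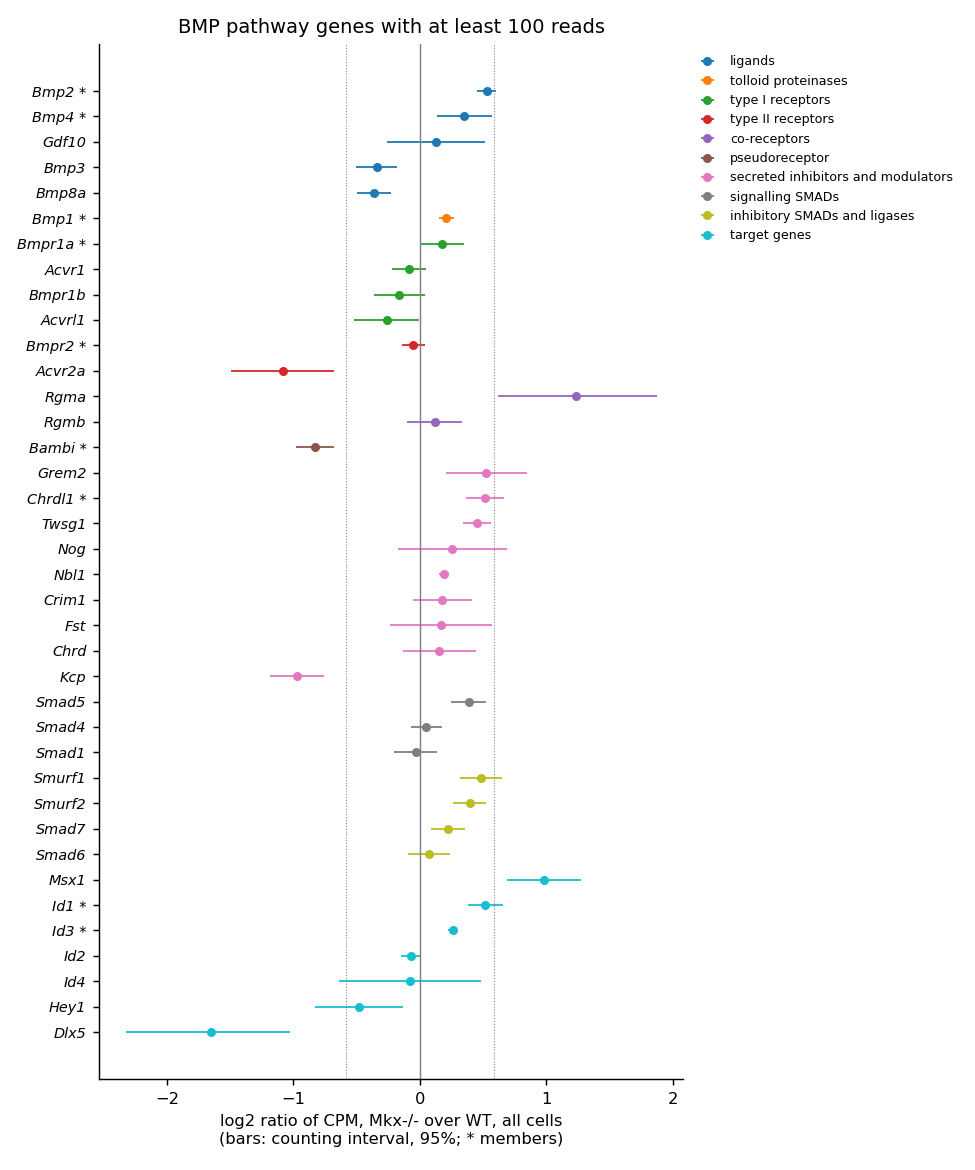
Log2 ratio of Mkx-/- over WT CPM over all cells (x axis) for the 38 pathway genes with at least 100 reads, coloured by role and marked with an asterisk for the 10-gene set, with exact intervals at 95% and dotted lines at 1.5-fold. Rgma and Msx1 lie past the right line and Dlx5, Acvr2a, Kcp and Bambi past the left one.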

How the data were processed

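The authors deposited 1 table of raw read counts per gene for 451 single cells. Per their methods, reads were cleaned with AfterQC, trimmed at the 3′ end, aligned with bowtie2 and counted with featureCounts. The methods name mm9 and the submitters' processing notes mm10, so the build is unsettled. Versions, strand and the handling of multiply aligned reads are not given in the sources used here, and bowtie2 does not split reads over introns. The study states a larger number of cells than the table holds. No cell was removed, no doublet caller was run, and no 2 cells had identical counts.

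Counts were summed by genotype and cluster and divided by the summed reads (CPM). Intervals at 95% are exact: Poisson for sums, conditional binomial for ratios and Clopper-Pearson for shares. Reads are not unique molecules. Clustering used Seurat 5.3.0 (R 4.3.3) with canonical correlation anchors in 4 dimensions at resolution 0.4, on the union of the 1000 most variable genes per genotype, a newer routine than the one in the study, so clusters need not hold the same cells. Called genes were past 1.5-fold with at least 100 reads over the groups compared. In the wider list, the genes named were the 3 with most reads in each role and those past the fold. Gdf5, Gdf7, Gdf2 and Nog were named after their values were seen, and Smad6 was named outside this rule. The co-receptor Eng fell under the rule but was not described above. It had 15 WT and 18 Mkx-/- reads. For likeness, the 3 genes with the highest correlation were named. Alternatives were edgeR 4.0.16 and DESeq2 1.42.0 scaling, thinning, a 2-fold rule, other clusterings and omitted cells. The ratio calculation was tested on simulated pooled Poisson counts. These had no spread between cells, so the test checks the calculation and not whether the intervals hold for these cells. Positions are from GENCODE M1 on NCBIM37 (mm9), and promoters from RefSeq GRCm38.p6. The members and lists were chosen with earlier results of these data known.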

Additional observations from a re-analysis of the deposited data

Results flagged for a closer look

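Id3 had genotype ratios of opposite sign in different clusters. Its log2 ratio of Mkx-/- over WT was -0.35 in TPC-like cells and 0.49 in TC-like cells, each with an interval clear of 0. The difference between the clusters was not tested, because each genotype was 1 sample. The intervals cover counting error, not the spread between cells or between animals. Ratios of opposite sign with both intervals clear of 0 were found for 19.4% of the 10963 genes with at least 100 reads.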

How the results depend on the processing

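No paired analysis was possible because each genotype was 1 sample and the labels numbered cells in no shared order. Of 496 alternative values, 393 stayed within the interval or spread of the main value. Of the single members past 1.5-fold, 1 changed sign: Id1 in TPC-like cells became -0.035 without the cells that had at least 2 endothelial or mural markers. In the same setting the median of the members in cluster 3 was -0.16. In TC-like cells, where the main median of the members was 0.32, it was 0.12 with TMM factors, 0.11 with median-of-ratios factors and 0.11 in cells thinned to 28000 reads (shallower cells left out), since both scalings lower every TC-like ratio by 0.20 (elsewhere the shift was under 0.06). In the wider list, the 2 genes past 1.5-fold higher became 4 without the leading cell of each genotype, 5 without the cells with endothelial or mural markers, 5 with no filter on low counts and 1 under a 2-fold rule. The 4 genes past it lower became 7 without the cells with endothelial or mural markers, 8 with no filter and 2 under a 2-fold rule. Among 423 alternatives for single members, 24 changed sign, 11 of them to a value outside the main interval. Of these 11, 4 were Chrdl1 in TC-like cells, and the others included Bmp2 in TC-like cells (-0.14) and Bambi (-0.67) and Bmpr2 (0.23) in TPC-like cells, all without the cells with endothelial or mural markers. The sign of Bambi over all cells, in cluster 3 and in TC-like cells, of Id1 in TC-like cells and of Id3 in TPC-like and TC-like cells did not change under any alternative run. Genes with few reads, such as Grem1, Rgma and Acvr2b, are limited by depth, and several sums rest on a few cells.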
